A study of Homo sapiens with 8 samples.

Results

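The HOXA cluster on chromosome 7 holds 7 noncoding or readthrough transcripts that are counted as genes of their own in the deposited table, namely HOTAIRM1, HOXA-AS2, HOXA-AS3, HOXA10-HOXA9, HOXA10-AS, HOXA11-AS and HOTTIP. They were taken by gene name and make up 7 of the 38551 gene rows used. They were measured in MOLM-13, an established human acute myeloid leukemia cell line that carries a KMT2A (MLL) rearrangement. Cells were exposed for 72 h to 100 nM PR-957 (ONX-0914), an inhibitor of the immunoproteasome subunit PSMB8, or to DMSO, the solvent of the drug, with 4 libraries per group. All 8 libraries were made from polyA RNA of this cell line, so a result here describes a single line at a single dose and time. The comparison asks how RNA levels of the noncoding part of the HOXA cluster differed with immunoproteasome inhibition.

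HOXA genes encode homeodomain transcription factors that are kept active in KMT2A-rearranged leukemia and are silenced as normal myeloid cells mature. The noncoding transcripts of the cluster are read mostly from the strand opposite to the HOXA genes, from starts between or close beside them. HOTAIRM1 is known as a myeloid RNA from the 3′ end of the cluster that increases during granulocytic maturation, and HOTTIP, at the HOXA13 end, is known to bind WDR5, a subunit of the KMT2A-type histone methyltransferases.

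Libraries held 16675036 to 23111223 counted fragments, and a count of 3 corresponded to 0.130 to 0.180 CPM (a gene's count scaled to a common library size) in a library. Levels below are CPM after library-size scaling with TMM (edgeR's trimmed mean method), given as mean ± SD over 4 libraries. Log2 fold changes (log2FC, PR-957 against DMSO), 95% intervals and adjusted p-values are from edgeR's quasi-likelihood test with Benjamini-Hochberg adjustment over the 13179 genes that passed the filter on low counts. Across these genes 46.6% changed at an adjusted p under 0.05, 23.1% being higher and 23.5% lower with PR-957, and the median log2FC was 0.003. Of 13 myeloid markers, 12 had counts, and only CSF2RA, which the annotation places on 2 chromosomes, was at 0. Of 10 markers of other blood cells CD3E (T cells) was at 0 and MS4A1 (B cells) had 1 count in all libraries. NCAM1, listed as a marker of natural killer cells, was at 98.7 CPM in DMSO and 56.1 CPM with PR-957. NKG7, listed likewise, was at 22.0 and 26.4 CPM. All libraries are of a single line, so these levels are not read as other cells. The 13 myeloid markers summed to 1487 to 1564 CPM in DMSO and 2302 to 2560 CPM with PR-957, and the 10 markers of other blood cells to 115 to 125 and 75.3 to 94.3 CPM. Most of the sum for other blood cells was NCAM1. Most of the myeloid rise was LYZ (mean 153 to 820 CPM) and MPO (175 to 506 CPM), while FLT3 fell from 340 to 173 CPM. Of the 11 myeloid markers tested, 5 were higher, 1 was lower and 5 did not pass, against 23.1% higher and 23.5% lower of all genes. Among 5 non-blood markers 3 were tested, with PECAM1 higher (49.2 to 83.0 CPM) and KRT18 lower (33.7 to 27.5 CPM), against the same shares. The part of these markers in the results below was not tested. Nothing in the labels says whether the 4 libraries of a group came from separate cultures, so p-values measure the spread between these libraries.

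On the genome (hg38, chromosome 7), HOTAIRM1 occupies 27096094-27100258 on the plus strand and has 3 exon blocks of 1044 bases in all. HOXA-AS2 (27121919-27128760, plus strand, 4 exon blocks of 1048 bases) lies inside the span of HOXA3 and overlaps the end of HOXA4, and 30.5% of its exon bases face exons of these genes. HOXA-AS3 (27140364-27155928, plus strand, 4 exon blocks of 4168 bases) runs against HOXA7, HOXA6 and part of HOXA3, whose exons face 61.3% of its exon bases. HOXA10-HOXA9 (27162438-27180261, minus strand, 3 exon blocks of 2110 bases) is the readthrough of HOXA10 into HOXA9 and shares 81.0% of its exon bases with these 2 genes on the same strand. HOXA10-AS (27168899-27171915, plus strand, 3 exon blocks of 1161 bases) runs against HOXA10, and 59.6% of its exon bases face exons of HOXA10 or the microRNA gene MIR196B. HOXA11-AS (27185408-27189293, plus strand, 2 exon blocks of 1549 bases) starts 176 bases from the start of HOXA11. HOTTIP (27200421-27207259, plus strand, 3 exon blocks of 4665 bases) starts 330 bases from the start of HOXA13.

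Because HOXA-AS2, HOXA-AS3 and HOXA10-AS face coding exons, the strand setting of the counts matters for these 3 members. The authors counted fragments on the reverse strand. Among 73 gene pairs in which at least 80% of the exon bases of a gene faced exons of a well-counted gene on the other strand, the median ratio of counts per exon base, the covered gene over the covering gene, was 0.00992, and the ratio was under 0.1 in 72.6% of pairs. Many covered genes were short, and among the 41 pairs with a covered gene of at least 200 exon bases the median was 0.0243 and 61.0% were under 0.1. Within the cluster, HOXA-AS3 had 11 counts in all 8 libraries, whereas HOXA7, which faces 1507 of its exon bases, had 1750. Fragments that overlapped several genes on the same strand were not assigned, so counts of HOXA10-HOXA9 came from the 400 exon bases it does not share or from fragments that reached them. The same holds for HOXA9, which shares 72.4% of its exon bases and has 570 unshared ones. The ratio of HOXA10-HOXA9 to HOXA9 below therefore does not give readthrough per HOXA9 transcript.

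Start windows of the members were compared, since they differ widely in base composition. RefSeq windows of 300 bases (GRCh38.p14), most of each lying before the start, were found for 5 of the 7 members, all of which matched hg38. The window of HOXA-AS3 (chr7:27146913-27147212) belongs to a RefSeq start that lies inside the gene as spanned by its exon blocks, so it does not describe the outermost start. The windows of 3 members are shown to let the richest in CpG, HOTTIP, be read against HOXA11-AS, the member with the most counts, and HOXA-AS2, which was almost not detected. Each is written 5′ to 3′ on the plus strand with every CpG in capitals. They are chr7:27200171-27200470 for HOTTIP, chr7:27185158-27185457 for HOXA11-AS and chr7:27121669-27121968 for HOXA-AS2.
HOTTIP: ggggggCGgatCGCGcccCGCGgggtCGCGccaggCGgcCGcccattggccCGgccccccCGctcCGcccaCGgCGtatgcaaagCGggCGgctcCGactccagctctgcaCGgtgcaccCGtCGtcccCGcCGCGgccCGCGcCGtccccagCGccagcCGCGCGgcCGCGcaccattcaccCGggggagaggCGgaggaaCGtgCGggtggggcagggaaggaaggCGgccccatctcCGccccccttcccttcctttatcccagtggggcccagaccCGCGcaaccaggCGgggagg
HOXA11-AS: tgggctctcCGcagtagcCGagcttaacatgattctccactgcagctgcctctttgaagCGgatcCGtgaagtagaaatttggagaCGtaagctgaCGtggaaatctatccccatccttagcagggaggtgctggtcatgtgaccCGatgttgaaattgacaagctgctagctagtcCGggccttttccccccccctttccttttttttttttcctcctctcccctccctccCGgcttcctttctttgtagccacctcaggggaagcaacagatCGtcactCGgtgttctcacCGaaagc
HOXA-AS2: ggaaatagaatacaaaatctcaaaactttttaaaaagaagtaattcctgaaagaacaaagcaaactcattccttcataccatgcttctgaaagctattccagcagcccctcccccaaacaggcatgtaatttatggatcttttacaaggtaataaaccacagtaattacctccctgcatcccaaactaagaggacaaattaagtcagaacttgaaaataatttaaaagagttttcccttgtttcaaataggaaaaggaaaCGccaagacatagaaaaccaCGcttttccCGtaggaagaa
The HOTTIP window had 41 CpG and a GC content of 78.0%, more CpG than 93.3% of the 34796 distinct windows of all genes, whose median was 14. The HOXA11-AS and HOXA10-HOXA9 windows each had 12 CpG, which exceeded 47.0% of windows. HOXA-AS2 had 3 CpG and HOXA-AS3 had 2, more than 18.3% and 11.0% of windows. Searched on both strands, CCAAT was present in the HOTTIP and HOXA-AS3 windows and in 34.6% of all windows, and GGGCGG in the HOTTIP and HOXA10-HOXA9 windows and in 44.9% of all. TATAAA (11.6% of windows) and CACGTG (7.20%) were in none of the 5.

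HOXA10-AS also holds, in its exon 2, the complement of a microRNA. The mature miR-196b-5p lies at chr7:27169528-27169549 on the minus strand, inside the 84-base MIR196B hairpin. It is shown with its seed (bases 2 to 8) in capitals, above the same bases as they read in HOXA10-AS on the plus strand with the complement of the seed in capitals.
miR-196b-5p: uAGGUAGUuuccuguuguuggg
HOXA10-AS, same bases: cccaacaacaggaaACTACCTa
MIR196B as a gene row had 10 counts in all 8 libraries, and mature microRNA was not measured by these polyA libraries.

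The members differed widely in abundance. Per kilobase of exon, HOXA10-AS stood at 11.7 ± 1.15 CPM in DMSO and HOXA11-AS at 11.6 ± 1.62 CPM, and the ranges of these neighbours overlapped. HOTAIRM1 followed at 2.84 ± 0.683 CPM per kilobase and HOTTIP at 1.63 ± 0.208 CPM per kilobase. HOXA10-HOXA9 reached 0.322 ± 0.0521 CPM per kilobase, or 1.70 ± 0.275 CPM per kilobase of the exon bases it does not share. HOXA-AS3 (0.0299 ± 0.0242 CPM per kilobase) and HOXA-AS2 (0.0133 ± 0.0266 CPM per kilobase) were lowest and overlapped. From HOXA11-AS down to HOXA-AS3, each step in this order separated ranges that did not overlap in DMSO, except that HOXA10-HOXA9 per unshared exon base was not below HOTTIP. For comparison, HOXA10 was at 44.9 CPM per kilobase in DMSO, HOXA11 at 16.9 CPM per kilobase and HOXA13 at 14.9.

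With PR-957 the 2 leading members were at 8.75 ± 0.957 CPM per kilobase for HOXA11-AS and 7.72 ± 0.516 CPM per kilobase for HOXA10-AS, again with overlapping ranges. HOXA10-AS was above HOXA11-AS in 3 of 4 DMSO libraries and in 0 of 4 PR-957 libraries. HOTAIRM1 was at 4.16 ± 1.02 CPM per kilobase and HOTTIP at 1.65 ± 0.140 CPM per kilobase, still without overlap. HOXA10-HOXA9 (0.154 ± 0.121 CPM per kilobase) overlapped HOXA-AS3 (0.00587 ± 0.00681 CPM per kilobase) in these libraries.

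**Figure D1:**
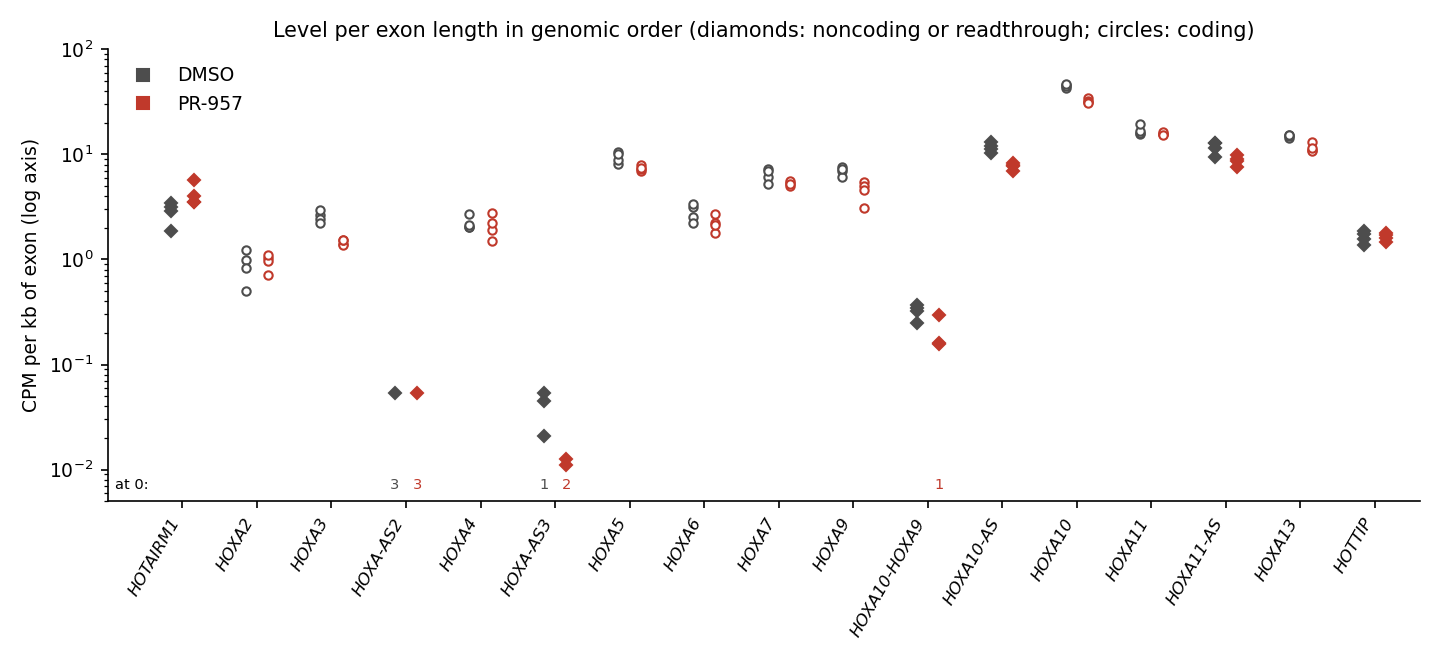
Levels of the HOXA cluster genes in CPM per kilobase of exon on a log axis, with a point for each library of the DMSO and PR-957 groups. HOXA10-AS and HOXA11-AS lie above HOTAIRM1 and HOTTIP in both groups, and HOXA-AS2 and HOXA-AS3 lie at the bottom, where the numbers above the axis give how many libraries of a group were at 0.

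Treatment with PR-957 moved these transcripts in different directions. HOXA10-AS and HOXA11-AS fell and HOTAIRM1 rose, while HOTTIP and HOXA10-HOXA9 did not pass the test. Of the 5 members that passed the filter, 2 were therefore lower and 1 higher, against 23.5% and 23.1% of all genes tested. The libraries of the groups did not overlap for 2 members, HOTAIRM1 and HOXA10-AS, against 42.5% of all genes tested. HOXA-AS2 and HOXA-AS3 had too few counts to be tested.

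**Figure D2:**
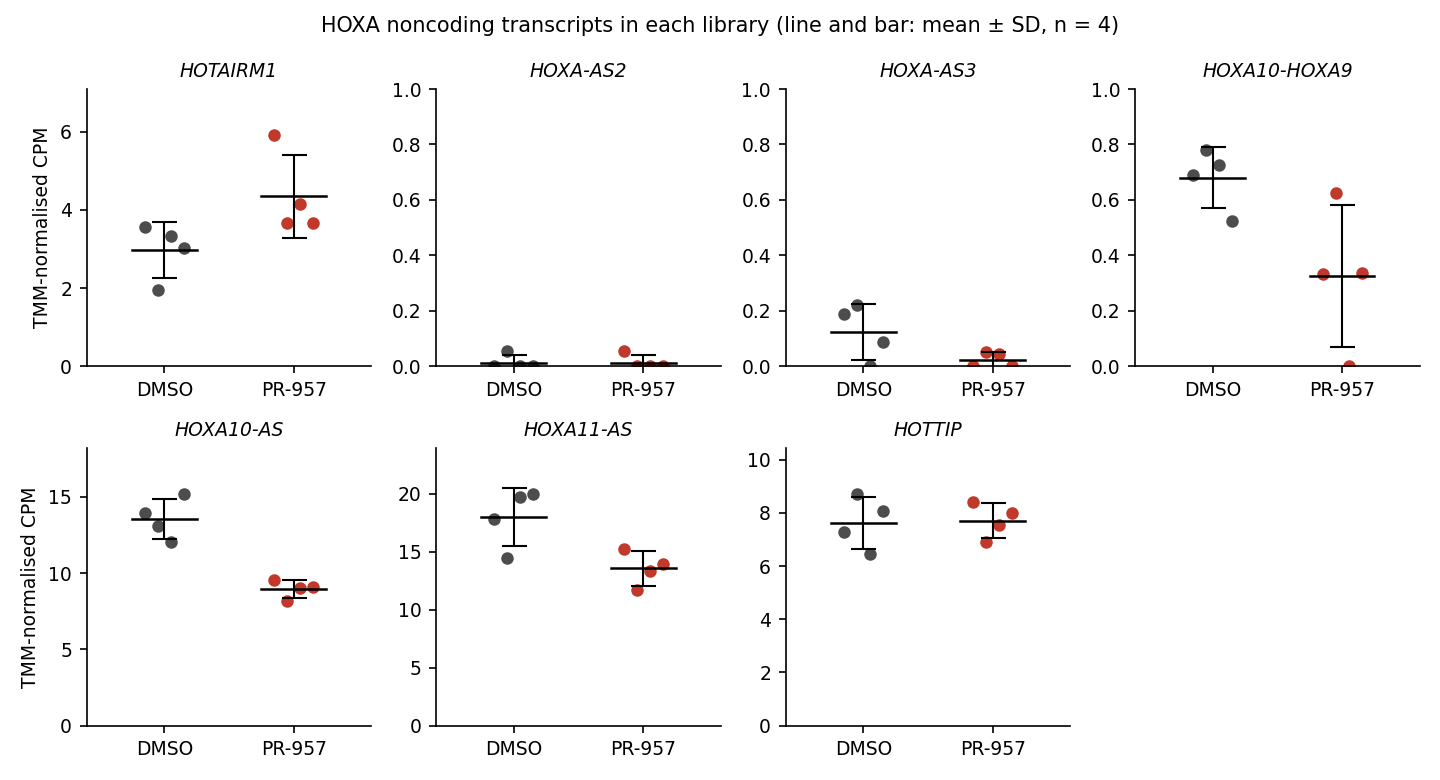
TMM-normalized CPM of each of the 7 members in the 4 DMSO and 4 PR-957 libraries, with the mean and SD of each group. HOXA10-AS lay between 12.0 and 15.2 CPM in DMSO and between 8.14 and 9.58 CPM with PR-957, whereas the points of HOTTIP were interleaved.

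HOTAIRM1, at the 3′ end of the cluster, was higher with PR-957. It was at 3.57, 1.95, 3.32 and 3.01 CPM in DMSO libraries 1 to 4 (35 to 69 counts) and at 5.90, 3.65, 4.15 and 3.66 CPM in PR-957 libraries 1 to 4 (65 to 106 counts). The groups did not overlap, but DMSO library 1 came within 0.1 CPM of PR-957 libraries 2 and 4, and DMSO library 2 and PR-957 library 1 stood farthest out. The mean was 2.96 ± 0.713 CPM in DMSO and 4.34 ± 1.07 CPM with PR-957, 1.47-fold higher (log2FC 0.55, SE 0.21, 95% interval 0.11 to 1.00, adjusted p = 0.0400). The call was lost without DMSO library 2 (log2FC 0.40, adjusted p = 0.136), without PR-957 library 1 (0.37, adjusted p = 0.194), without PR-957 library 3 (0.57, adjusted p = 0.0655) and with DESeq2 (0.55, adjusted p = 0.0561).

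Genes of myeloid maturation moved in the same libraries. Of 10 such genes, 9 were tested, 5 were higher with PR-957 and 1, CD86, a costimulatory surface protein, was lower, against 23.1% and 23.5% of all genes tested, with a median log2FC of 0.25 beside 0.003. The higher genes, LYZ, S100A8, S100A9, CSF3R and CEBPE, encode granule, calcium-binding and receptor proteins and a granulocytic transcription factor. LYZ, S100A8, S100A9, ITGAM and CD14 are also among the myeloid markers above, so these lists are not separate observations. The summed level of all 10 was 332 to 373 CPM in DMSO libraries and 917 to 1181 CPM in PR-957 libraries. Most of this rise was LYZ, whose mean went from 153 to 820 CPM. ITGAM, FCGR1A and ITGAX did not pass (log2FC 0.22, -0.10 and -0.42), and CD14 had too few counts to be tested. DMSO library 4 stood above the other DMSO libraries for ITGAX (58.8 CPM against 22.3 to 25.9) and ITGAM (36.0 against 19.8 to 21.4). With PR-957 these genes lay at 21.7 to 30.3 and 27.3 to 29.6 CPM. CD86 was also highest in DMSO library 4 (4.89 CPM), whereas FCGR1A and LYZ were lowest there among DMSO libraries (52.0 and 136 CPM). The part of these genes in the HOTAIRM1 result was not tested. In bulk RNA a change in the number of maturing cells and a change in RNA per cell cannot be told apart.

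HOXA10-AS, the antisense RNA of HOXA10, showed the clearest decrease. Its level was 14.0, 13.1, 12.0 and 15.2 CPM in DMSO libraries 1 to 4 (199 to 347 counts) and 9.58, 8.14, 8.99 and 9.11 CPM in PR-957 libraries 1 to 4 (156 to 197 counts). Every PR-957 library was below every DMSO library. The mean went from 13.6 ± 1.33 to 8.96 ± 0.599 CPM, 1.52-fold lower (log2FC -0.60, SE 0.11, 95% interval -0.82 to -0.38, adjusted p = 0.000123).

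HOXA11-AS, read from the strand opposite to HOXA11, was also lower. DMSO libraries 1 to 4 were at 17.9, 14.5, 19.7 and 19.9 CPM (260 to 456 counts) and PR-957 libraries 1 to 4 at 15.3, 11.7, 13.3 and 13.9 CPM (224 to 292 counts). The groups overlapped in a single place, PR-957 library 1 being above DMSO library 2, which was the lowest of its group as PR-957 library 2 was of the other. The mean went from 18.0 ± 2.51 to 13.6 ± 1.48 CPM, 1.33-fold lower (log2FC -0.41, SE 0.11, 95% interval -0.64 to -0.18, adjusted p = 0.00427). Within the libraries numbered 1 and 2 alone the log2FC was -0.26 (adjusted p = 0.114), and within those numbered 3 and 4 it was -0.54.

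HOTTIP, at the HOXA13 end, did not differ detectably. Its level was 7.27, 8.69, 6.46 and 8.08 CPM in DMSO libraries 1 to 4 (107 to 185 counts) and 8.41, 6.89, 7.53 and 7.99 CPM in PR-957 libraries 1 to 4 (132 to 165 counts). All PR-957 libraries lay inside the DMSO range. The means were 7.62 ± 0.970 and 7.71 ± 0.651 CPM (log2FC 0.01, SE 0.13, adjusted p = 0.953), and the 95% interval of -0.26 to 0.28 bounds the difference that these libraries leave possible.

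HOXA10-HOXA9, the readthrough transcript, was rare. DMSO libraries 1 to 4 were at 0.689, 0.780, 0.724 and 0.524 CPM (11 to 14 counts) and PR-957 libraries 1 to 4 at 0.334, 0.626, 0 and 0.337 CPM (0 to 12 counts). It passed the filter mainly through the DMSO libraries, of which 3 reached the cutoff of 0.553 CPM, as did 1 PR-957 library. PR-957 library 2 overlapped the DMSO range, and library 3 had no count, where up to 3 counts or 0.142 CPM would be allowed. The log2FC was -1.08 (SE 0.53, 95% interval -2.18 to 0.03, adjusted p = 0.102). Without PR-957 library 3 it was -0.62 (adjusted p = 0.259), and without PR-957 library 2 it was -1.64 (adjusted p = 0.0313).

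HOXA-AS3, read against HOXA7 and HOXA6, had 3, 4, 0 and 2 counts in DMSO libraries 1 to 4 and 0, 1, 1 and 0 counts in PR-957 libraries 1 to 4. HOXA-AS2 had 1 count in DMSO library 2 and 1 in PR-957 library 1, and 0 in the other libraries. At this depth neither transcript could be compared between the groups. Intervals and limits drawn from counts cover counting error only.

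The members also made up different parts of the noncoding counts in each group, which is a comparison within a library and does not depend on its total. HOTAIRM1 took 6.87 ± 1.48% of the counts of the 7 members in DMSO and 12.3 ± 1.89% with PR-957. HOXA10-AS took 31.6 ± 2.14% and 25.7 ± 1.01%, HOXA11-AS 41.8 ± 4.04% and 38.8 ± 0.914%, and HOTTIP 17.9 ± 2.97% and 22.1 ± 0.627%. These shares were not tested, and since they sum to a whole, a fall of some members raises the shares of others. Ratios between the 4 well-counted members were then compared by an exact two-sided permutation test, which with 4 against 4 libraries cannot give a p below 0.0286. These 6 ratios were chosen after the data were seen. HOTAIRM1 rose from 22.0 ± 5.76 to 48.2 ± 9.32 counts per 100 counts of HOXA10-AS, and from 16.4 ± 2.79 to 31.8 ± 5.14 per 100 of HOXA11-AS, with groups that did not overlap (exact p = 0.0286 and 0.0571 after adjustment over 6 ratios, for each). HOXA10-AS went from 179 ± 19.2 to 116 ± 2.81 counts per 100 of HOTTIP, also without overlap (exact p = 0.0286, adjusted p = 0.0571). The other 3 ratios overlapped, with exact p from 0.143 to 0.171. No ratio passed after adjustment, for which at least 4 of the 6 would have had to reach the smallest p.

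Along the cluster the coding genes offer the local reference for each transcript. Of 10 HOXA coding genes, all of which were tested, 5 were lower with PR-957 (HOXA3, HOXA5, HOXA9, HOXA10 and HOXA13) against 23.5% of all genes tested, and 5 did not pass. The groups did not overlap for 5 of them, against 42.5% of all genes. Their median log2FC was -0.35 beside 0.003 over all genes. HOXA10 went from 124 to 88.8 CPM (log2FC -0.48, adjusted p = 8.78e-07), HOXA13 had a log2FC of -0.37 (adjusted p = 9.35e-05), and HOXA11 one of -0.11 (adjusted p = 0.224).

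**Figure D3:**
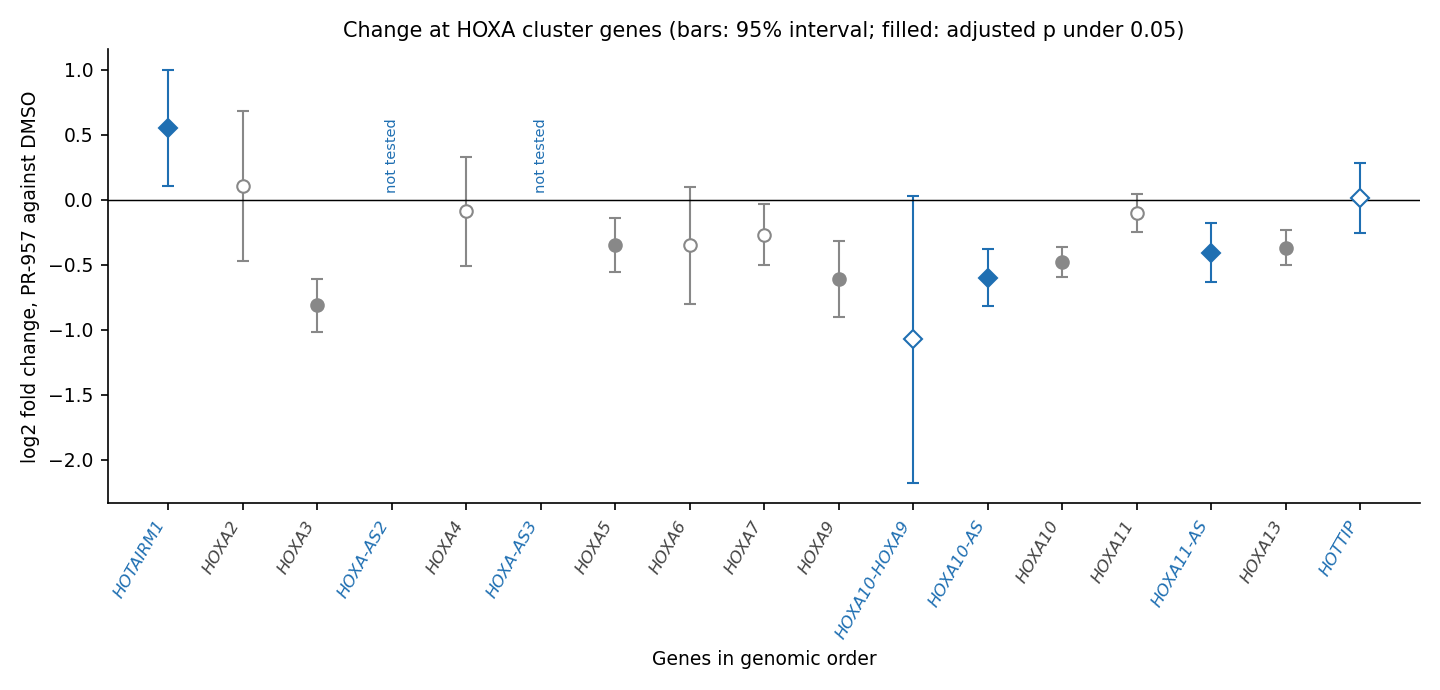
Log2 fold change of PR-957 against DMSO for the 7 members and 10 coding genes of the HOXA cluster in genomic order, members in blue diamonds and coding genes in grey circles, with 95% intervals and filled symbols where the adjusted p was under 0.05. HOTAIRM1 is the filled symbol above 0, HOXA10-AS and HOXA11-AS are the filled diamonds below 0, and HOTTIP sits at 0.01 beside HOXA13 at -0.37.

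To compare transcripts with a neighbouring coding gene, counts of 4 members were divided by those of the partner in the same library. HOXA10-AS was at 10.9 ± 0.888 and 10.1 ± 0.627 counts per 100 of HOXA10 (log2 difference -0.11, exact p = 0.200, adjusted p = 0.267 over 4 pairs). For this pair the difference of the means was smaller than the SD of the DMSO libraries.

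HOXA11-AS had 39.8 ± 4.54 counts per 100 of HOXA11 in DMSO and 32.3 ± 3.95 with PR-957 (log2 difference -0.30, exact p = 0.0857, adjusted p = 0.171). HOTTIP had 10.2 ± 1.34 and 13.4 ± 2.02 counts per 100 of HOXA13 (log2 difference 0.39, exact p = 0.0857, adjusted p = 0.171). HOXA10-HOXA9 had 4.78 and 3.57 counts per 100 of HOXA9 (exact p = 0.514, adjusted p = 0.514), a difference that rested on PR-957 library 3 at 0 counts. The groups overlapped for all 4 pairs and no pair passed after adjustment, and with 4 pairs at least 3 would have had to reach the smallest p. HOTTIP was therefore not shown to differ from HOXA13 in its response, although only HOXA13 passed the test of change.

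**Figure D4:**
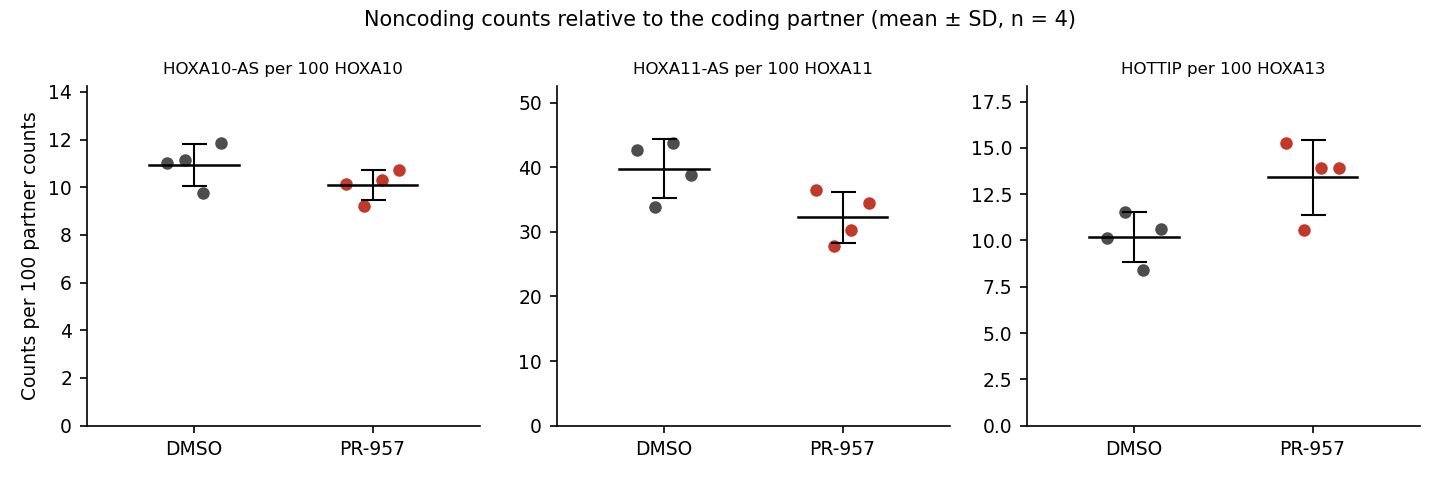
Counts of HOXA10-AS, HOXA11-AS and HOTTIP per 100 counts of the coding partner, with a point for each library and the mean and SD of the DMSO and PR-957 groups. The groups overlap in all 3 panels, with HOXA10-AS near 10.9 and 10.1 per 100 counts of HOXA10.

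Summed over these 7 members and 10 coding genes, the members held 12.0 ± 0.396% of counts in DMSO and 12.7 ± 1.17% with PR-957, a difference of 0.719 percentage points (exact permutation test, p = 0.314). It was 0.292 points without PR-957 library 1 and 1.22 points without PR-957 library 2. All 17 genes together fell from 0.0349 ± 0.00166% to 0.0283 ± 0.000179% of all counts (exact p = 0.0286, the smallest that 4 against 4 libraries can give). HOXA10 was the largest part of this sum, with a mean of 124 CPM in DMSO, where the coding genes summed to 303 to 330 CPM. The sum does not describe each gene, since HOTAIRM1 was higher. Outside the cluster, its neighbours SKAP2, HIBADH and SNX10 had log2FC values of 0.01, 0.01 and 0.19 and did not pass (adjusted p = 0.945, 0.934 and 0.161). EVX1, the homeobox gene beyond HOTTIP, had 5 counts in all libraries and EVX1-AS had none.

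Noncoding transcripts of the HOXB, HOXC and HOXD clusters were almost not detected. Of 12 such genes 10 were rows of the table by name, 8 had a count and 0 passed the filter, so no edgeR or other test was run on them. Their summed level was 0.313 to 1.17 CPM in a library, against 31.1 to 46.8 CPM for the HOXA members. HOTAIR, the HOXC transcript known for its binding of Polycomb proteins, had 17 counts in all 8 libraries.

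Among 13 chromatin factors known to act on HOX loci, 3 were higher and 3 lower with PR-957, close to the 23.1% and 23.5% of all genes tested, and their median log2FC was -0.01. PSIP1 (LEDGF), which tethers the KMT2A-menin complex to chromatin, fell from 252 to 146 CPM (log2FC -0.79, adjusted p = 1.39e-09). RAD21, a cohesin subunit, had a log2FC of -0.57 (adjusted p = 2.94e-07) and ASH2L, a core subunit of the KMT2 methyltransferases, one of -0.30 (adjusted p = 0.000243). DPY30, another core subunit, MEN1, which encodes menin, and EED, a Polycomb subunit, were higher, with log2FC values of 0.36, 0.28 and 0.21 (adjusted p = 9.77e-05, 0.0018 and 0.0224). The EED call was lost without DMSO library 3 (adjusted p = 0.0531), PR-957 library 1 (0.111) or PR-957 library 2 (0.0518), and the MEN1 call in libraries 1 and 2 alone (0.0761).

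The partner of HOTTIP in this list, WDR5, had a log2FC of 0.13 (adjusted p = 0.0620), and KMT2A one of -0.08. DOT1L, RBBP5, EZH2, SUZ12 and CTCF had log2FC values between -0.09 and 0.15 and did not pass either. Whether any of these changes bears on the noncoding transcripts was not tested.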

How the data were processed

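RNA of 8 MOLM-13 libraries (4 DMSO, 4 PR-957) was analysed. The authors trimmed paired reads with Trimmomatic 0.39, aligned them to hg38 with STAR 2.7.10a and counted fragments per RefSeq gene with featureCounts 2.0.1 on the reverse strand, and deposited raw counts. The counting command recorded in the file header names 16 libraries, of which the 8 others were not analysed here. A deposited table with the authors' own DESeq2 fold changes and p-values was not used. Rows without values (6) were left out, and rows whose gene names had turned into dates (3) were kept.

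Counts were normalized by TMM, filtered with filterByExpr and tested with edgeR 4.0.16 (glmQLFit, robust, glmQLFTest; R 4.3.3) for PR-957 against DMSO on the whole table, after a run on simulated data. Alternatives were DESeq2 1.42.0, limma-voom 3.58.1, other scalings and filters, a replicate block, subsets of replicates and each library left out. Ratios and shares were compared by exact two-sided permutation tests, with a pseudocount of 0.5 in log2 ratios. Exon positions came from the hg38 RefSeq gene models in the count table and start windows from RefSeq (GRCh38.p14). Named genes were the 7 members, 10 HOXA coding genes, flanking genes, other HOX noncoding genes, 13 chromatin factors and, for members above 1 CPM on average, the 3 genes with the most similar deviations from the group means. A listed gene and the results that need it are not reported here. Members and lists were chosen with earlier results of these data known. Library totals were 16675036 to 23111223 counts.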

Additional observations from a re-analysis of the deposited data

Results flagged for a closer look

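HOXA-AS2 was the only transcript with a library far from the others of its group among the 24 group and gene combinations examined, where chance alone marks about 1 in 20. In DMSO it was at 0.0557 CPM in library 2 and at 0 in the other 3 libraries, and with PR-957 it was at 0.0557 CPM in library 1 and at 0 in the other 3. Each value is a single count, so these libraries are not distinguishable from those at 0 at this depth. The maturation genes are not covered by this statement, and ITGAX, for example, had DMSO library 4 far above the others (58.8 CPM).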

How the results depend on the processing

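HOXA10-AS stayed lower and past the threshold in all 19 alternatives (log2 fold change -0.66 to -0.52, adjusted p = 3.27e-06 to 0.00798). HOXA11-AS did so in 18 of 19, the exception being replicates 1 and 2 alone (-0.26, adjusted p = 0.114). HOTAIRM1 kept its direction in all 19 and passed in 14, with adjusted p from 0.0131 to 0.367. It did not pass with DESeq2 (0.55, adjusted p = 0.0561) or in replicates 3 and 4 alone (0.30, adjusted p = 0.367), and ranged from 0.37 to 0.65 when a library was left out. HOXA10-HOXA9 passed with limma-voom (-1.80, adjusted p = 0.0494), ranged from -1.64 to -0.62 when a library was left out, and could not be fitted in replicates 3 and 4 alone or with a filter of 1 CPM in 4 libraries. HOTTIP changed sign, without passing, in replicates 1 and 2 alone (-0.066) and without DMSO library 1, DMSO library 3, PR-957 library 1 or PR-957 library 4 (-0.060 to 0.077 over all left-out libraries).

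The count of members lower was 1 in replicates 1 and 2 alone and 2 to 3 when a library was left out. The count higher was 0 with DESeq2, 0 in replicates 3 and 4 alone, and 0 to 1 when a library was left out. With the readthrough gene left out, an alternative chosen after seeing the data, 2 members were lower. Partner ratios kept their direction under the settings run, as did the noncoding share (0.292 to 1.22 points when a library was left out). The cause of these changes was not tested.

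Signs also changed, without a call, for 7 other genes, given with the range over left-out libraries. They were HOXA2 (-0.35 in replicates 1 and 2 alone, range -0.081 to 0.29), HOXA4 (range -0.25 to 0.042), KMT2A (0.00115 with library totals), RBBP5 (0.00013 with upper-quartile scaling, 0.067 with library totals, 0.074 in replicates 3 and 4 alone, range -0.066 to 0.054), CTCF (range -0.024 to 0.050), SKAP2 (-0.079 in replicates 3 and 4 alone, range -0.036 to 0.057) and HIBADH (-0.026 in replicates 3 and 4 alone, range -0.021 to 0.043). Library totals moved the median of all genes to 0.08.

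With the replicate block HOTAIRM1 was at 0.55 (adjusted p = 0.0131), HOXA10-AS at -0.60, HOXA11-AS at -0.41, HOTTIP at 0.02 and HOXA10-HOXA9 at -1.13 (adjusted p = 0.0667), with no call changed among these members and 6913 genes called. The block brought HOXA7 (-0.27, adjusted p = 0.0347), WDR5 (0.13, adjusted p = 0.0207), EZH2 (0.15, adjusted p = 0.0214) and SNX10 (0.20, adjusted p = 0.0200) past the threshold, so that 6 HOXA coding genes were lower. WDR5 passed in 7 of 19 alternatives, EZH2 in 6, HOXA7 in 4 and SNX10 in 3, while EED did not pass in replicates 3 and 4 alone (0.14, adjusted p = 0.302). The numbers were not taken to pair the libraries, because the labels name no shared source and a correlation over 0.1 in every pair was required. Same-numbered libraries correlated in their deviations at r = 0.151, 0.213, 0.0985 and 0.198 for replicates 1 to 4, the third missing that limit narrowly, and 4 of 4 DMSO and 3 of 4 PR-957 libraries correlated best with their own number, a hint from the data of a shared source. Between same-numbered libraries, HOXA11-AS per HOXA11 was lower with PR-957 in 4 of 4 and HOTTIP per HOXA13 higher in 3 of 4. Depth limits HOXA-AS2, HOXA-AS3 and HOXA10-HOXA9 most.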

Other observations

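HAGLROS, a noncoding transcript of the HOXD cluster, had 11 counts, all of them in PR-957 libraries (5, 1, 3 and 2 counts in libraries 1 to 4) and none in DMSO. It did not pass the filter and was not tested. HOXC-AS3 and HOXB-AS3, with 36 and 34 counts in all 8 libraries, had the most counts among the other HOX noncoding transcripts.

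Deviations of log2 CPM from the group means were compared between genes over the 8 libraries, which share their depth and preparation, as a description only. Nearest to HOTAIRM1 were RPS19BP1 (r = 0.986), VKORC1 (r = 0.985) and LOC101928069 (r = 0.979), and 75 genes were above 0.9. Nearest to HOXA10-AS were FAM227B (r = 0.979), LINC00884 (r = 0.974) and SAT2 (r = 0.968), with 26 genes above 0.9. For HOXA11-AS they were GIMAP8 (r = 0.970), SNORA18 (r = 0.960) and GABARAP (r = 0.957), with 39 above 0.9, and for HOTTIP ZNF337 (r = 0.966), RAB39A (r = 0.949) and CASTOR3 (r = 0.946), with 20. The coding partner was not among these nearest genes for HOXA10-AS, HOXA11-AS or HOTTIP. Few of all tested genes can be nearest, so nothing follows from this absence. The partner stood at r = 0.492 for HOXA10-AS and HOXA10, 0.404 for HOXA11-AS and HOXA11, and -0.431 for HOTTIP and HOXA13.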
